A study of Mus musculus with 9 samples.

Results

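TGF-beta and BMP signalling was followed through 39 listed genes in tumour cells recovered from mouse lung: ligands, the proteins that store or release them, receptors, Smads, the proteins that restrain Smads, and target genes. Members were matched to the table by gene symbol, and the list was written with earlier results of these data known. Of the 39, 38 were found among the 24012 genes of the table, and the activin subunit gene Inhbb was not analysed here. The cells came from a mouse pancreatic ductal adenocarcinoma injected into the tail vein, and all 9 libraries shared 1 genotype, SIRT6F/F, p48-Cre, p53F/+, KrasL/+, in which Cre is driven from the pancreatic p48 locus. They also shared GFP and a reporter in which Gstt1, a glutathione S-transferase gene, is joined to mCherry. The 3 groups of 3 libraries were DTC, sorted by GFP 5 days after injection, mCherryHigh, sorted for strong reporter signal at 6 weeks, and mCherryLow, sorted for weak signal at 6 weeks. The labels give neither the age of the mice nor how many mice or clones stand behind a group, so the spread between libraries may be technical, and p-values measure that spread alone.

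TGF-beta is secreted in a latent form, bound through its propeptide to latent TGF-beta binding proteins in the extracellular matrix, and is released locally. The freed ligand brings type II and type I receptors together, and the type I receptor phosphorylates Smad2 and Smad3. BMPs act through their own receptors on Smad1 and Smad5, and both branches share Smad4. Inhibitory Smads, the ubiquitin ligases Smurf1 and Smurf2 and the corepressors Ski and Skil hold the pathway back. The Id genes, whose products block basic helix-loop-helix factors, are classic BMP targets. In pancreatic cancer the pathway is known both for restraining growth and for driving epithelial cells towards a mesenchymal state.

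Library totals recovered from the deposited CPM (reads scaled to a common library total) ran from 643748 reads in mCherryHigh 1 to 11861241 reads in mCherryLow 6, and the 3 DTC libraries held 1313868, 2052623 and 923988 reads. Where a gene had 0 reads, counting error alone would allow 3, equal to 4.66 CPM in mCherryHigh 1 and to 0.253 CPM in mCherryLow 6. The DTC libraries stood apart: Gm10800, Gm10801 and Lars2 together took 3.50% to 15.4% of their CPM, against 0.127% to 0.586% in mCherryHigh and 0.130% to 0.145% in mCherryLow. The summed level of 12 macrophage markers was 4380, 3651 and 8593 CPM in DTC, against 314 to 779 CPM in mCherryHigh and 434 to 719.6 CPM in mCherryLow, and 9 of the 12 were above all 6 mCherry libraries in every DTC library. The 10 endothelial markers summed to 365, 229 and 481 CPM in DTC, 36.2 to 59.0 CPM in mCherryHigh and 18.5 to 27.0 CPM in mCherryLow. The 8 tumour epithelium markers summed to 5345, 6054 and 439 CPM in DTC 1, 2 and 3, against 2161 to 5995 CPM in mCherryHigh and 1797 to 2579 CPM in mCherryLow. DTC 3 was thus low in the sum of tumour markers and high in that of macrophage markers. The tumour sum was mostly keratin, and in DTC 3 Krt8, Krt18 and Krt19 were at 76.8, 169 and 74.7 CPM. The other tumour markers did not all go the same way. Cdh1, at 29.2 CPM, was below all mCherry libraries, but Sox9, at 55.2 CPM, was above them, and Muc1, at 18.4 CPM, was the highest DTC value. Epcam, at 16.2 CPM, lay within the mCherry range of 10.9 to 45.4 CPM. Over all 3 DTC libraries, 2 of the 8 markers, Krt19 and Cldn4, were below all 6 mCherry libraries, and 1, Sox9, was above. Krt19 was at 696, 885 and 74.7 CPM in DTC, against 895.5 CPM in the lowest mCherry library. Cldn4 was at 0.761, 0 and 0 CPM, against 2.93 CPM in the lowest, while 3 reads in DTC 3 equal 3.25 CPM. In the label codes, which are not explained, all DTC libraries carry a code that no mCherry library has. The code, the day of sorting and the gate cannot be told apart from being DTC, and neither can fewer cells of a type and less RNA per cell.

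All 38 members passed the filter on low values, 1 CPM or more in 3 or more of the 6 libraries, in every comparison. Differences were tested with limma over all genes that passed, on the log2(CPM + 1) scale, and a gene is called at a Benjamini-Hochberg adjusted p under 0.05. The questions were how the cells at 5 days, and the cells with strong reporter signal at 6 weeks, differ from the cells with weak signal. In DTC, 3 genes for latent TGF-beta binding proteins, Smad1, Smad2, the corepressor Skil and the targets Id1, Id3, Junb and Ctgf were lower than in mCherryLow, while the receptors Tgfbr3 and Bmpr2 were higher. Of the 38 members, 10 were called lower and 2 higher, which is 26.3% and 5.26% of the members, against 8.87% lower and 34.2% higher of the 18701 genes tested. Weakly expressed genes were among those higher in DTC, so the members were also read beside genes of some abundance: among genes with a mean of at least 10 CPM, 13.2% were called lower and 24.2% higher, and of the 34 members at that level 29.4% were called lower and 2.94% higher. Without DTC 1 only 3 of 37 members tested were called lower, and 691 of the 15916 genes tested. Of the 2 called higher, Tgfbr3 passed the filter on low values only through the DTC libraries, so its call is no support. The members' median difference was -0.64, against 0.59 for all genes tested.

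Against mCherryHigh, DTC showed 11 members lower and 1 higher. Of the 19700 genes tested, 7.19% were called lower and 23.0% higher, and among genes with a mean of at least 10 CPM the shares were 11.0% and 20.0%. The members' median difference was -0.67, against 0.55 for all genes. In these fits the shift of all genes puts a member at -1 in CPM lower still beside the median gene tested. Genes that passed the filter only through the DTC libraries are in that median, and their part in it was not tested. Differences relative to that median are given below for the main members. That median depends on the setting. In DTC minus mCherryLow it was 0.26, 0.25 and 0.32 without DTC 1, 2 and 3, and 0.57 to 0.63 without an mCherryLow library. There it was 0.14 with edgeR and -0.14 with quantile normalization. In DTC minus mCherryHigh it was 0.44 to 0.46 without a DTC library and 0.49 to 0.56 without an mCherryHigh library. With edgeR it was 0.17, and with quantile normalization -0.097. The DTC comparisons share the DTC libraries, so their calls are not independent of each other. In mCherryHigh against mCherryLow 0 members were called, and neither was any of the 15437 genes, which is 0%.

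**Figure D1:**
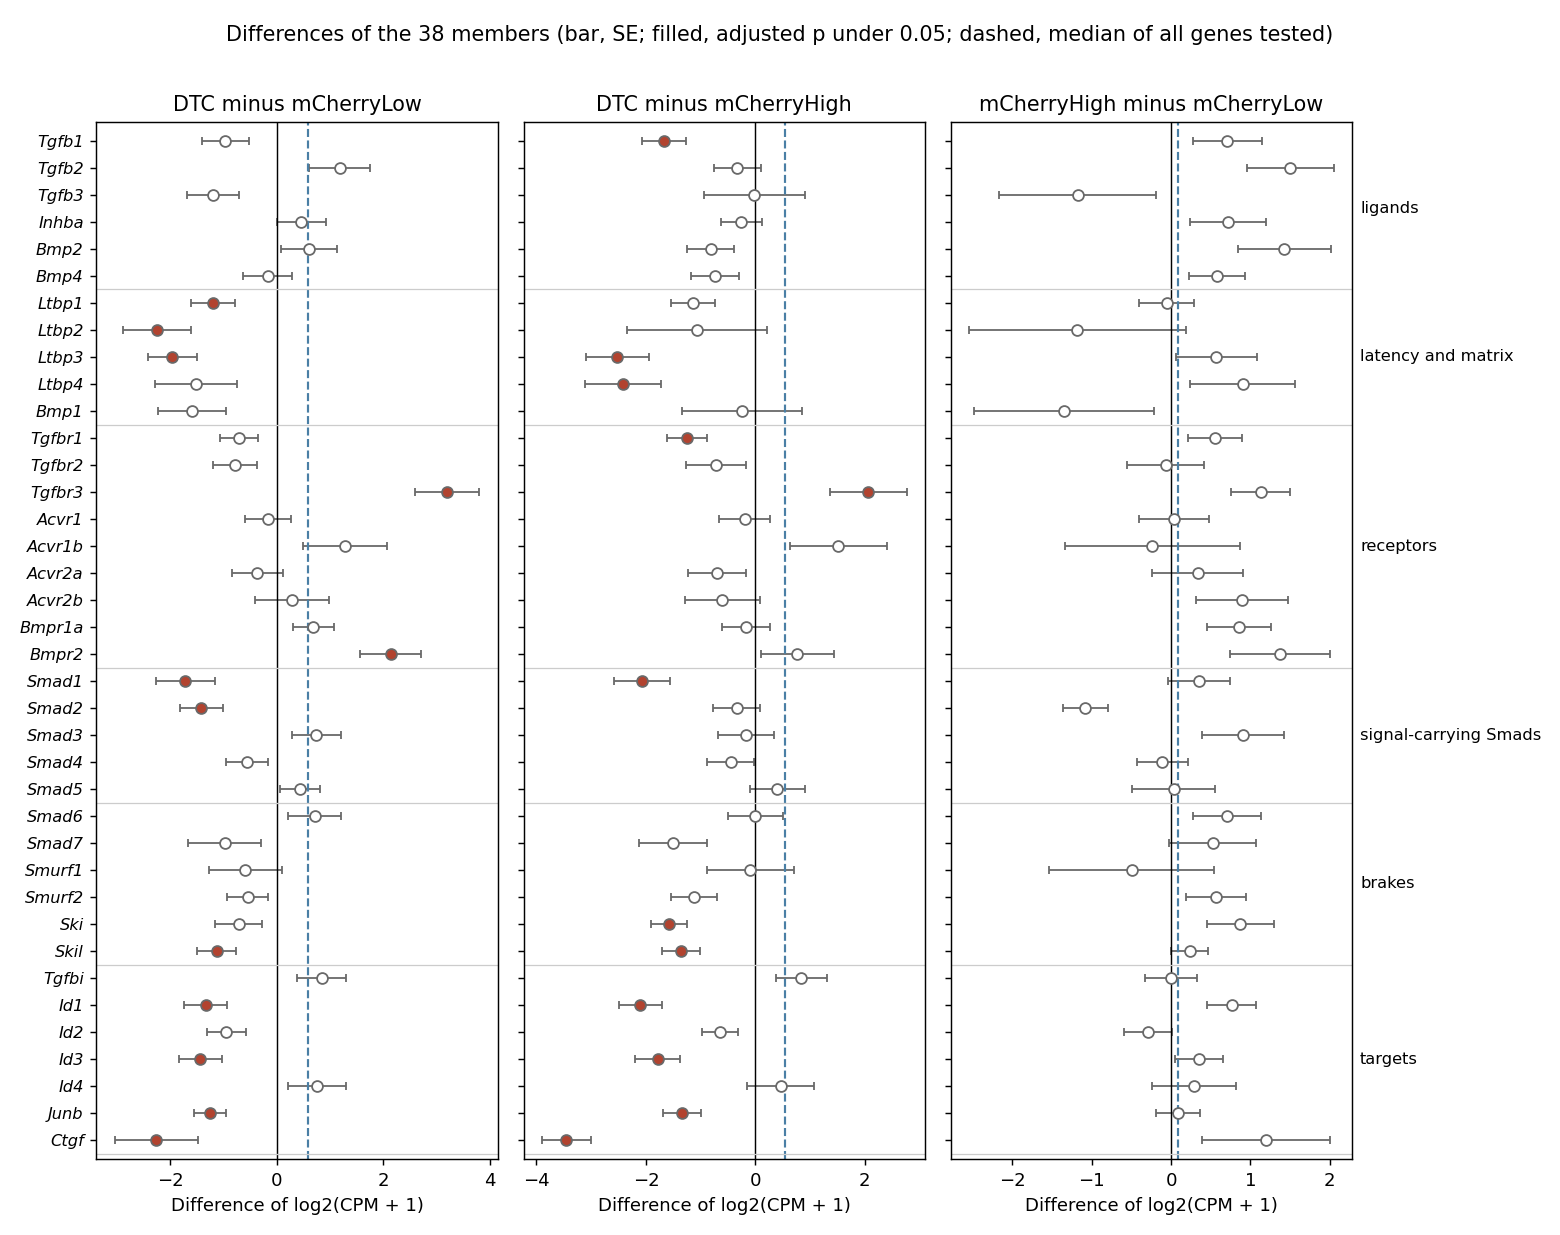
Differences of log2(CPM + 1) for the 38 members in each comparison, in rows ordered by role, with bars for the standard error and filled points for limma adjusted p under 0.05. The dashed line is the median of all genes tested, the horizontal scales differ between panels, and in both DTC comparisons most filled points lie left of 0 and left of that line.

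Among the ligands, Tgfb1, the form of TGF-beta made by most cells, was the member that moved against mCherryHigh. It was at 91.3, 151 and 77.9 CPM in DTC 1, 2 and 3, against 326, 223 and 482 CPM in mCherryHigh 1, 5 and 6, and at 314, 111 and 229 CPM in mCherryLow 1, 5 and 6. Every DTC library lay below every mCherryHigh library, while DTC 2 lay above mCherryLow 5. The difference was -1.67 from mCherryHigh (SE 0.40, limma adjusted p = 0.0115), or -2.21 relative to the median of all genes, and the call was lost without DTC 1 (adjusted p = 0.0529). From mCherryLow it was not called (adjusted p = 0.0961).

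Per kilobase of exon, Tgfb1 had the highest mean level of the 6 ligands in each group, at 21.1 ± 7.66 CPM per kb in DTC, 68.2 ± 25.9 in mCherryHigh and 43.3 ± 20.2 in mCherryLow (SD, n = 3 each). In DTC the next ligands, the activin subunit Inhba at 18.6 ± 3.36 and Bmp2 at 16.8 ± 3.30 CPM per kb, were within the spread of Tgfb1. The order below Tgfb1 in mCherryHigh was Bmp2 at 31.3 ± 12.4, Inhba at 22.9 ± 7.34 and Bmp4 at 19.9 ± 1.98 CPM per kb, and these neighbours did not part beyond their spread. Tgfb2 and Tgfb3 were the lowest ligands, between 2.86 and 9.60 CPM per kb in the group means. None of Tgfb2, Tgfb3, Inhba, Bmp2 or Bmp4 was called in any comparison. Tgfb3 came nearest in DTC against mCherryLow, at 10.7, 18.03 and 11.9 CPM against 34.6, 22.0 and 40.8 CPM, with no overlap and a limma adjusted p of 0.0663.

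Of the 5 genes that store or release ligand, Ltbp1, Ltbp2 and Ltbp3 were called lower in DTC than in mCherryLow (60.0%, against 8.87% of all genes), and Ltbp3 and Ltbp4 lower than in mCherryHigh (40.0%, against 7.19%). Only Ltbp3 was called in both comparisons. Ltbp3, which binds latent TGF-beta in the secretory pathway and the matrix, was at 41.1, 36.5 and 14.1 CPM in DTC, against 71.5, 286 and 217 CPM in mCherryHigh and, in mCherryLow, 90.7, 102 and 146 CPM. All 3 DTC libraries lay below all 6 mCherry libraries, and the 2 mCherry groups overlapped. The difference from mCherryLow was -1.95 (SE 0.46, limma adjusted p = 0.00580), or -2.55 relative to all genes, and that from mCherryHigh was -2.53 (SE 0.58, adjusted p = 0.00915), or -3.07 relative to all genes. Both calls stood in every fit that left out 1 library. The mean level was 30.6 ± 14.5 CPM in DTC, 192 ± 110 CPM in mCherryHigh and 113 ± 29.2 CPM in mCherryLow (SD, n = 3 each).

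Ltbp1, the best studied carrier of latent TGF-beta, was at 73.8, 149 and 72.5 CPM in DTC, against 270, 224 and 143 CPM in mCherryHigh and 173, 320 and 175 CPM in mCherryLow. DTC lay wholly below mCherryLow but overlapped mCherryHigh, whose library 6 was at 143 CPM. The difference from mCherryLow was -1.19 (SE 0.41, limma adjusted p = 0.0335), and it lost its call without DTC 1 (0.138), DTC 3 (0.0851) or mCherryLow 5 (0.124), and with quantile normalization (0.124). Ltbp2, a related matrix protein that does not itself carry latent TGF-beta, was at 3.04, 2.44 and 13.0 CPM in DTC, 0, 40.8 and 41.5 CPM in mCherryHigh and 37.5, 19.4 and 25.2 CPM in mCherryLow. The 0 stood in mCherryHigh 1, the shallowest library. Its difference from mCherryLow was -2.24 (SE 0.64, limma adjusted p = 0.0151), lost without DTC 1 (0.0786), DTC 2 (0.0582) or mCherryLow 1 (0.0563), and in 1 fit of all 9 libraries (0.153). An antisense gene covers 9.34% of Ltbp2's exons, and the library kit does not mark strand, so reads of the pair cannot be told apart.

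Ltbp4, which carries the Tgfb1 product and takes part in elastic fibre assembly, was at 11.4, 26.8 and 3.25 CPM in DTC, against 107, 52.8 and 37.4 CPM in mCherryHigh and 11.2, 55.5 and 48.4 CPM in mCherryLow. It differed by -2.42 from mCherryHigh (SE 0.69, limma adjusted p = 0.0235), without overlap, and the call was lost without mCherryHigh 1 (0.0533), DTC 1 (0.0625) or DTC 3 (0.0680). mCherryLow 1 lay within the DTC range, and the difference from mCherryLow was not called. Bmp1, a protease that releases latent TGF-beta by cutting Ltbp1 and also processes procollagen, had group means of 20.1 ± 19.5 CPM in DTC, 35.9 ± 34.6 CPM in mCherryHigh and 49.7 ± 18.6 CPM in mCherryLow (SD, n = 3 each), and was not called.

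**Figure D2:**
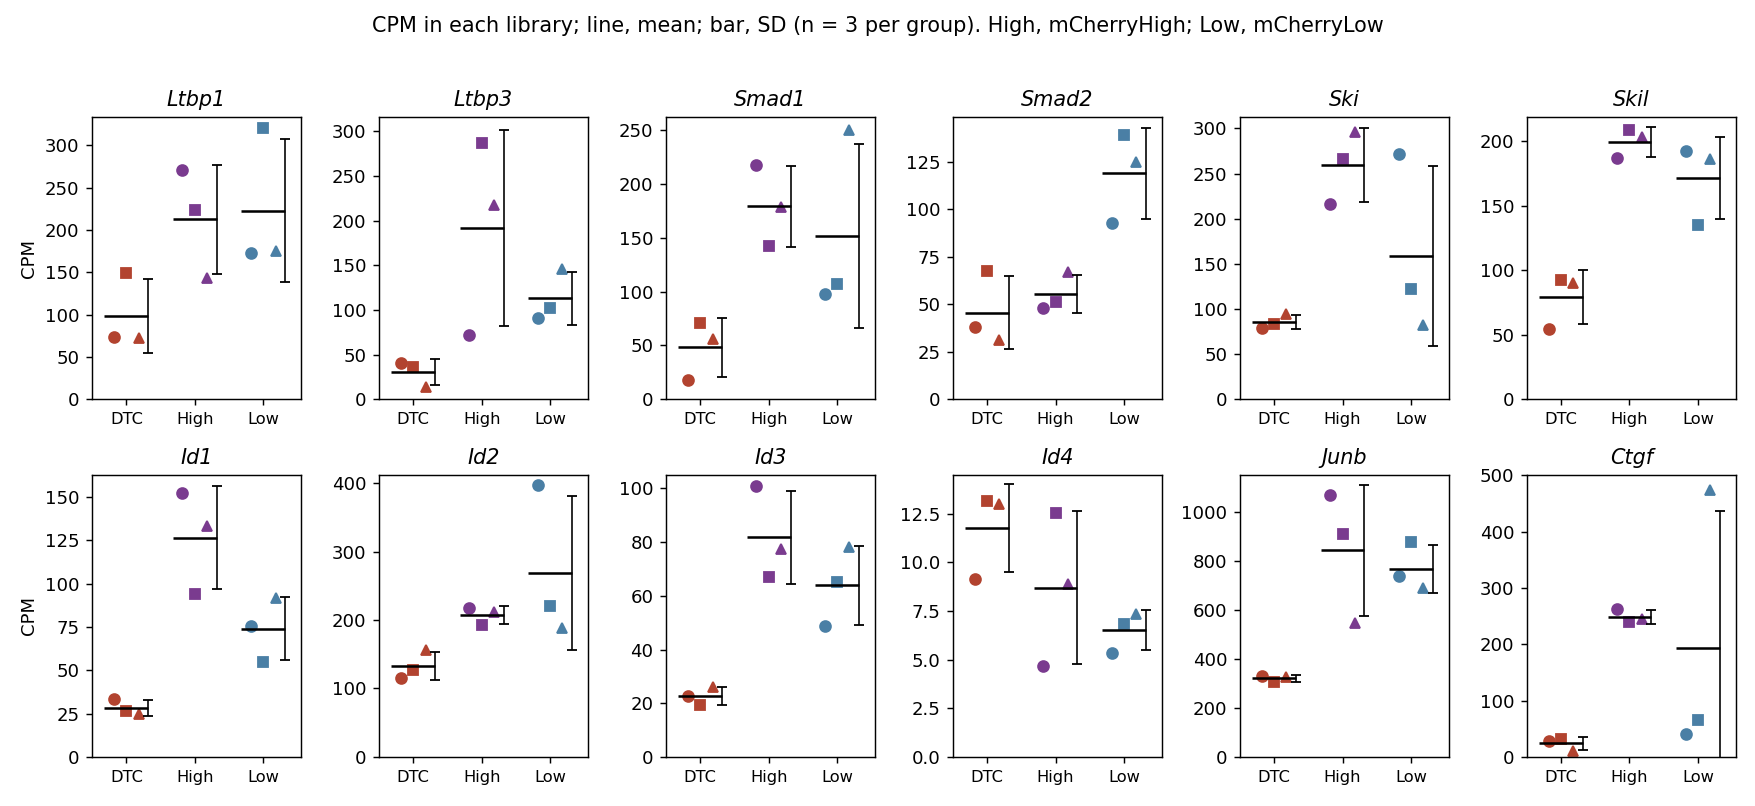
CPM of 12 members in each of the 9 libraries (circle, square and triangle in label order, High and Low for mCherryHigh and mCherryLow), with a panel for each gene, a line for the group mean and a bar for the SD (n = 3), so each panel has its own axis from 0. The DTC points of Ltbp3, Id1, Id3, Junb and Ctgf lie below all 6 mCherry points, and the wide bar of Ctgf in mCherryLow, cut at 0, comes from 1 library at 474 CPM.

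Of the 9 receptor genes, 2 were called higher in DTC than in mCherryLow (22.2%, below the 34.2% of all genes called higher) and 0 lower. Against mCherryHigh 1 was called in each direction (11.1%), where 23.0% of all genes were called higher and 7.19% lower. Tgfbr3, or betaglycan, an accessory receptor that presents TGF-beta to the signalling receptors, was at 19.8, 10.2 and 4.33 CPM in DTC, 1.55, 1.33 and 1.84 CPM in mCherryHigh and 0.488, 0 and 0.0843 CPM in mCherryLow. These values rest on 26, 21 and 4 reads in DTC, 1, 13 and 18 in mCherryHigh, and 1, 0 and 1 in mCherryLow. The 3 groups did not overlap in CPM, but 3 reads in mCherryHigh 1 are 4.66 CPM, so depth limits this order. The fitted difference from mCherryLow was 3.20, given as a description, since the gene had at most 1 read in each mCherryLow library and passed the filter only through the DTC libraries. The difference from mCherryHigh was 2.07 (SE 0.70, adjusted p = 0.0443), lost without mCherryHigh 5 (0.121), mCherryHigh 6 (0.100), DTC 1 (0.182) or DTC 2 (0.0961). With quantile normalization it was not called either.

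Bmpr2, the type II receptor for BMPs that lung endothelium is known to depend on, was at 22.8, 20.0 and 67.1 CPM in DTC, 14.0, 9.39 and 43.6 CPM in mCherryHigh and 5.36, 6.57 and 7.33 CPM in mCherryLow. Both DTC and mCherryHigh lay wholly above mCherryLow, and they overlapped each other. The difference of DTC from mCherryLow was 2.14 (SE 0.58, limma adjusted p = 0.0114), lost without DTC 3 (0.0566) and with quantile normalization. In the DTC libraries 9 of the 10 endothelial markers were above all mCherry libraries, with DTC 3, the highest for Bmpr2, also the highest for their sum at 481 CPM, and 4 of the 6 alveolar and club cell markers were above all mCherry libraries. The order of the libraries for Bmpr2 matched that of the endothelial sum in DTC and in mCherryLow. The sums in mCherryLow 1, 5 and 6 were 18.5, 24.9 and 27.0 CPM. In mCherryHigh the orders did not match: library 6 was the highest for Bmpr2 and had the lowest endothelial sum, at 36.2 CPM. Tgfbr3 was lower in DTC 3, at 4.33 CPM, than in DTC 1 and 2. The part of these cells in the levels of Tgfbr3 and Bmpr2 was not tested.

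Tgfbr1, the type I receptor for TGF-beta, was at 112, 99.4 and 128 CPM in DTC, against 190, 381 and 271 CPM in mCherryHigh and 267, 145 and 159 CPM in mCherryLow. All 3 DTC libraries lay below the other 6. The difference was called from mCherryHigh, at -1.25 (SE 0.36, limma adjusted p = 0.0245), and not from mCherryLow, at -0.70 (adjusted p = 0.132). The first lost its call without mCherryHigh 5 (0.111), mCherryHigh 6 (0.0652), DTC 1 (0.0834) or DTC 2 (0.0526), and with quantile normalization (0.134). Tgfbr2, its type II partner, averaged 85.2 ± 46.3 CPM in DTC, 149 ± 84.1 CPM in mCherryHigh and 135 ± 11.2 CPM in mCherryLow (SD, n = 3 each) and was not called. Neither were the activin and BMP receptor genes Acvr1, Acvr1b, Acvr2a, Acvr2b and Bmpr1a.

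Smad1, the Smad that BMP receptors phosphorylate, was at 17.5, 70.6 and 56.3 CPM in DTC, against 217, 142 and 178 CPM in mCherryHigh and 97.5, 107 and 250.3 CPM in mCherryLow. All DTC libraries lay below all mCherry libraries. It differed by -1.71 from mCherryLow (SE 0.55, limma adjusted p = 0.0250) and by -2.07 from mCherryHigh (SE 0.51, adjusted p = 0.0120), or -2.31 and -2.61 relative to all genes. The first was lost without DTC 1 (0.126) or mCherryLow 6 (0.0994) and with quantile normalization (0.0737), and the second stood in every fit that left out 1 library.

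Smad2, which carries the TGF-beta and activin signal, had another pattern, with mCherryLow apart from the rest. It was at 38.1, 67.2 and 31.4 CPM in DTC, 48.2, 51.4 and 66.8 CPM in mCherryHigh and 92.6, 139 and 125 CPM in mCherryLow. DTC and mCherryHigh overlapped, and both lay below mCherryLow. DTC differed from mCherryLow by -1.42 (SE 0.40, limma adjusted p = 0.0145), lost without DTC 1 (0.0673) and with reads thinned to the shallowest library (0.0720). mCherryHigh differed from mCherryLow by -1.08 (SE 0.28), which was not called (adjusted p = 0.444). The other signal-carrying Smads, Smad3, Smad4 and Smad5, were called in no comparison. Per kilobase of exon the shared Smad4 had the highest mean of these 5 Smads in each group, at 28.8 ± 13.3 CPM per kb in DTC, 38.98 ± 16.0 in mCherryHigh and 40.4 ± 7.72 in mCherryLow (SD, n = 3 each).

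Of the 6 genes that restrain the pathway, the corepressors moved and the others were not called. Skil, whose product SnoN represses Smad targets and whose gene is itself induced by TGF-beta, was at 54.8, 92.6 and 89.8 CPM in DTC, against 186, 208 and 203 CPM in mCherryHigh and 193, 135 and 186 CPM in mCherryLow. Every DTC library was lower than every mCherry library. The difference was -1.13 from mCherryLow (SE 0.36, limma adjusted p = 0.0260), lost without DTC 1 (0.134), mCherryLow 1 (0.0909) or mCherryLow 6 (0.0816), and -1.36 from mCherryHigh (SE 0.35, adjusted p = 0.0160), lost without mCherryHigh 5 (0.0543) or DTC 1 (0.0857). Both calls were lost with quantile normalization. Ski, its close relative, was at 79.2, 83.3 and 94.2 CPM in DTC, 216, 267 and 297 CPM in mCherryHigh and 272, 122 and 82.5 CPM in mCherryLow. mCherryLow overlapped both other groups. Ski differed by -1.58 from mCherryHigh (SE 0.33, limma adjusted p = 0.00630), in every fit that left out 1 library, and was not called against mCherryLow.

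Smad6 and Smad7, the inhibitory Smads, were not called. Smad6 averaged 17.4 ± 2.95 CPM in DTC, 17.4 ± 3.08 CPM in mCherryHigh and 10.2 ± 1.17 CPM in mCherryLow (SD, n = 3 each), and both DTC and mCherryHigh lay wholly above mCherryLow. Smad7 ran from 9.74 to 67.7 CPM in DTC, from 61.1 to 124 CPM in mCherryHigh and from 28.0 to 120 CPM in mCherryLow. Smurf2 had the tightest DTC values of any member, at 37.3, 36.1 and 36.8 CPM, below all 6 mCherry libraries, with an adjusted p of 0.0659 against mCherryHigh by limma. Smurf1 varied within each group, from 13.6 to 141 CPM in mCherryHigh alone.

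The targets were called lower in DTC for 4 of the 7 genes, Id1, Id3, Junb and Ctgf, against each mCherry group, which is 57.1% of them, where 8.87% of all genes were called lower against mCherryLow and 7.19% against mCherryHigh. Id1, a BMP target that holds back differentiation, was at 33.5, 26.8 and 24.9 CPM in DTC, 152, 94.0 and 133 CPM in mCherryHigh and 75.6, 55.0 and 91.6 CPM in mCherryLow. The groups did not overlap, in the order DTC, mCherryLow and mCherryHigh from low to high, and Id1 was the 1 member of 38 with that order, which 0.623% of 20213 genes showed. It differed by -1.33 from mCherryLow (SE 0.40, limma adjusted p = 0.0181), or -1.93 relative to all genes, lost without mCherryLow 1 (0.0572) or mCherryLow 6 (0.0770). From mCherryHigh it differed by -2.10 (SE 0.39, adjusted p = 0.00400), or -2.65 relative to all genes, in every fit that left out 1 library.

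Id3, which is often induced beside Id1, was at 22.8, 19.5 and 26.0 CPM in DTC, 101, 66.8 and 77.3 CPM in mCherryHigh and 48.8, 65.0 and 78.2 CPM in mCherryLow. DTC lay below all mCherry libraries, while mCherryHigh and mCherryLow overlapped. The difference was -1.43 from mCherryLow (SE 0.41, limma adjusted p = 0.0143), lost without DTC 1 (0.0564) or mCherryLow 6 (0.0638), and -1.79 from mCherryHigh (SE 0.40, adjusted p = 0.00879), which stood in every fit that left out 1 library. Relative to all genes these were -2.03 and -2.33. Means were 22.8 ± 3.24 CPM in DTC, 81.7 ± 17.5 CPM in mCherryHigh and 64.0 ± 14.7 CPM in mCherryLow (SD, n = 3 each).

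Id2 lay on the same side as Id1 and Id3 but did not pass the test, and Id4 was not called either. Id2 was at 116, 128 and 156 CPM in DTC, against 189 to 398 CPM over the mCherry libraries, with no overlap, and was not called from mCherryLow (limma adjusted p = 0.0577) or mCherryHigh (0.153). Id4 ran from 9.13 to 13.2 CPM in DTC, from 4.66 to 12.6 CPM in mCherryHigh and from 5.36 to 7.33 CPM in mCherryLow, with DTC wholly above mCherryLow. Its difference from mCherryLow was 0.76 (SE 0.54, adjusted p = 0.274). Whether the Id genes differed from each other in their change was not tested. Promoters of the 4 Id genes, Smad6 and Junb were chosen for a motif search, and no window was found for Id1. The windows of Smad6 and Junb held none of the motifs given below and are not printed. Those of Id2, Id3 and Id4 are shown. Id2 and Id3 had every DTC library below every mCherry library, while Id4 had every DTC library above every mCherryLow library. Each window is the 250 bases before the transcription start in RefSeq, build GRCm38.p6, read 5′ to 3′ along the gene's strand, at chr12:25096093-25096342 (minus strand) for Id2, chr4:136143572-136143821 (plus strand) for Id3 and chr13:48260866-48261115 (plus strand) for Id4. Capitals mark GGCGCC, a GC-rich motif bound by Smads in BMP-induced promoters.
Id2: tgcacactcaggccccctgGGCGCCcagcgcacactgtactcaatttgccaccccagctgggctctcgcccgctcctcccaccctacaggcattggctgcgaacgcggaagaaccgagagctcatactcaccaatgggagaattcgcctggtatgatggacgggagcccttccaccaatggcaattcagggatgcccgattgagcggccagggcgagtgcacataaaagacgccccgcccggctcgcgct
Id3: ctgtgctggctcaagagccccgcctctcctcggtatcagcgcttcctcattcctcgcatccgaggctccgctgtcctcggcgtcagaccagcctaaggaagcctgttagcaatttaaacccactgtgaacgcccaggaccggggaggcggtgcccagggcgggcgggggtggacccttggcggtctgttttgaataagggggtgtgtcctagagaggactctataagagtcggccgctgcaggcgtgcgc
Id4: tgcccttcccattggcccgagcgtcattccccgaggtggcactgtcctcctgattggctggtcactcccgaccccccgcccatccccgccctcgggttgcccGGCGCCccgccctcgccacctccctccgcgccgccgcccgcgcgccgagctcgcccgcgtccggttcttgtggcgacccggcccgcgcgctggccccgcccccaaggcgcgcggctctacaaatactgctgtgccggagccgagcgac
The motif began at position -231 from the start of Id2 and at -148 from that of Id4, and was not in the window of Id3. Of 32851 mouse promoter windows of the same length, 9.59% held GGCGCC, which reads the same on both strands. The other motifs searched on both strands were CAGACA, a Smad-binding element in 17.1% of all windows, and TGACTCA, an AP-1 site in 4.46%, and none of the windows shown held either. RefSeq windows were matched for 29 of the 39 listed genes, of which 10 held GGCGCC, 4 CAGACA and 0 TGACTCA. A gene was counted if any of its windows held the motif, so these counts cannot be set beside the shares of single windows. A match is a description of the letters, not of binding.

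Junb, an AP-1 subunit and an immediate target of TGF-beta, was at 333, 306 and 327 CPM in DTC, 1072, 913 and 547.5 CPM in mCherryHigh and 738, 879.9 and 689 CPM in mCherryLow. The DTC libraries were close to each other, at 322 ± 14.0 CPM (SD, n = 3), and below all 6 mCherry libraries. The difference was -1.25 from mCherryLow (SE 0.30, limma adjusted p = 0.00660), in every fit that left out 1 library, and -1.33 from mCherryHigh (SE 0.35, adjusted p = 0.0162), lost without mCherryHigh 5 (0.0641) or DTC 1 (0.0691). Both calls were lost with quantile normalization. Relative to all genes they were -1.84 and -1.88. Per kilobase of exon Junb had the highest level of all 38 members in each group, at 140 ± 6.10 CPM per kb in DTC, 367 ± 117 in mCherryHigh and 334 ± 43.1 in mCherryLow (SD, n = 3 each). Prdx2 overlaps 7.52% of its exons on the opposite strand.

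Ctgf, a matricellular protein that TGF-beta and YAP induce, was the member with the largest fall. It was at 28.9, 32.2 and 10.8 CPM in DTC, 262.5, 239 and 244 CPM in mCherryHigh and 40.0, 65.4 and 474 CPM in mCherryLow. mCherryHigh was tight and DTC low, while mCherryLow 6 stood far above mCherryLow 1 and 5, and DTC lay below all 6 mCherry libraries. From mCherryHigh the difference was -3.46 (SE 0.45, limma adjusted p = 0.00146), or -4.003 relative to all genes, in every fit that left out 1 library. From mCherryLow it was -2.26 (SE 0.78, adjusted p = 0.0342), and -1.20 without mCherryLow 6 (0.131), and the call was also lost without DTC 1 (0.0735) or DTC 3 (0.130), with no filter (0.0535) and with thinned reads (0.0507). Gm15270 covers 23.2% of the exons of Ctgf on the opposite strand, and how many reads of the pair came from each was not measured. Tgfbi, a TGF-beta-induced matrix protein that macrophages also make, went the other way, at 56.3, 52.1 and 145 CPM in DTC, 43.5, 34.7 and 47.7 CPM in mCherryHigh and 46.3, 32.8 and 47.5 CPM in mCherryLow. DTC was above all mCherry libraries, and the difference was not called from either (limma adjusted p = 0.159 from mCherryLow and 0.192 from mCherryHigh). DTC 3 was highest for Tgfbi and, at 8593 CPM, for the macrophage markers, whose part in Tgfbi was not tested.

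**Figure D3:**
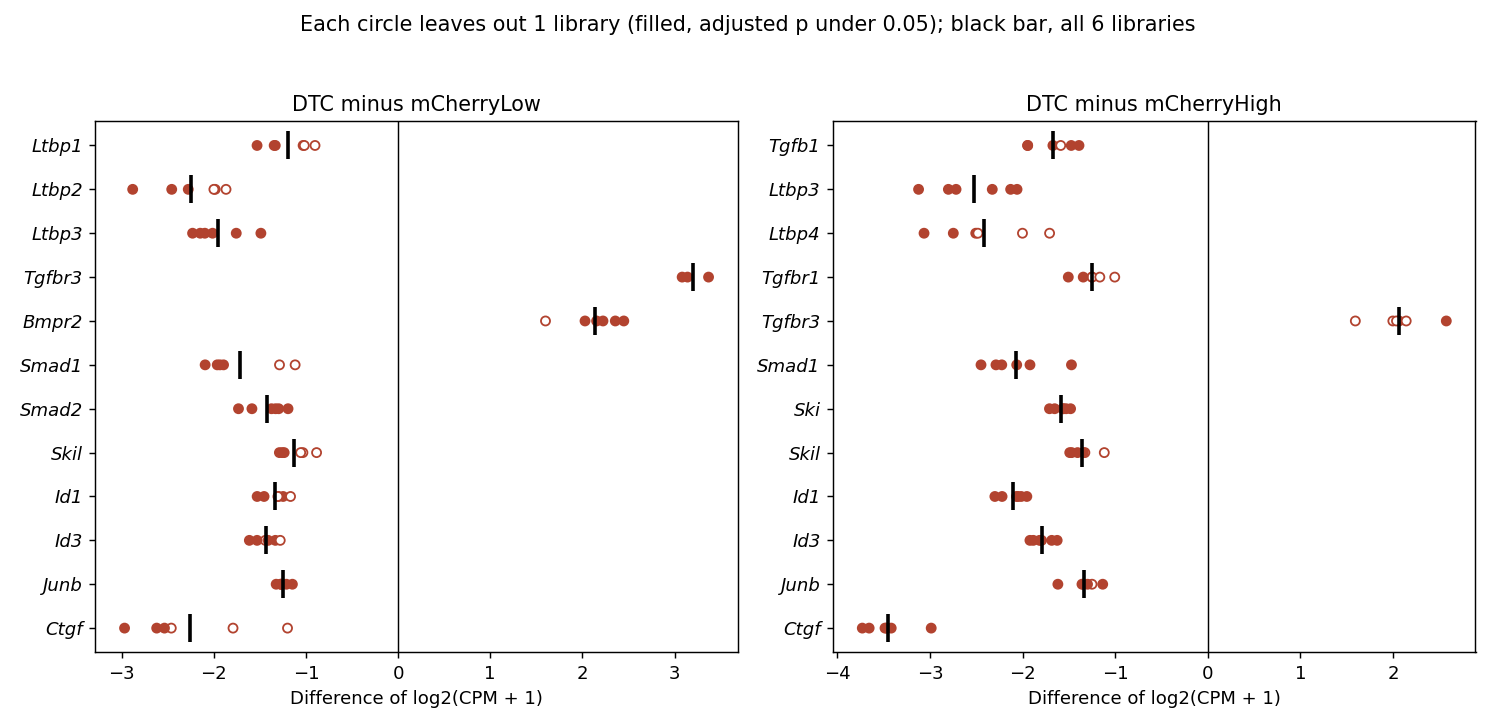
Differences of log2(CPM + 1) for the called members, with a black bar for the fit of all 6 libraries and a circle for each fit that left out 1 library, filled where the limma adjusted p was under 0.05, with 3 circles for Tgfbr3 on the left, where it passed the filter only through all 3 DTC libraries. Circles for Ctgf in DTC minus mCherryLow reach -1.20 without mCherryLow 6, and those of Ltbp3 are filled in both panels.

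Over all 9 libraries, 10 of the 38 members (26.3%) had every DTC library below every mCherry library: Tgfbr1, Ltbp3, Smad1, Smurf2, Skil, Id1, Id2, Id3, Junb and Ctgf. Of 20213 genes with at least 1 CPM in 3 libraries, 8.75% did so. Tgfbr3 and Tgfbi, 5.26% of the members, had every DTC library above, against 27.4% of those genes. In DTC against mCherryLow the groups did not overlap for 20 members, 14 of them lower and 6 higher, where 53.2% of all genes tested did not overlap and 14.2% were lower in that way. Against mCherryHigh they did not overlap for 16 members, 14 lower and 2 higher, where 44.7% of all genes did not overlap and 13.2% were lower in that way. The group mean of DTC was the lowest of the 3 in 25 members, that of mCherryHigh in 2 and that of mCherryLow in 11.

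**Figure D4:**
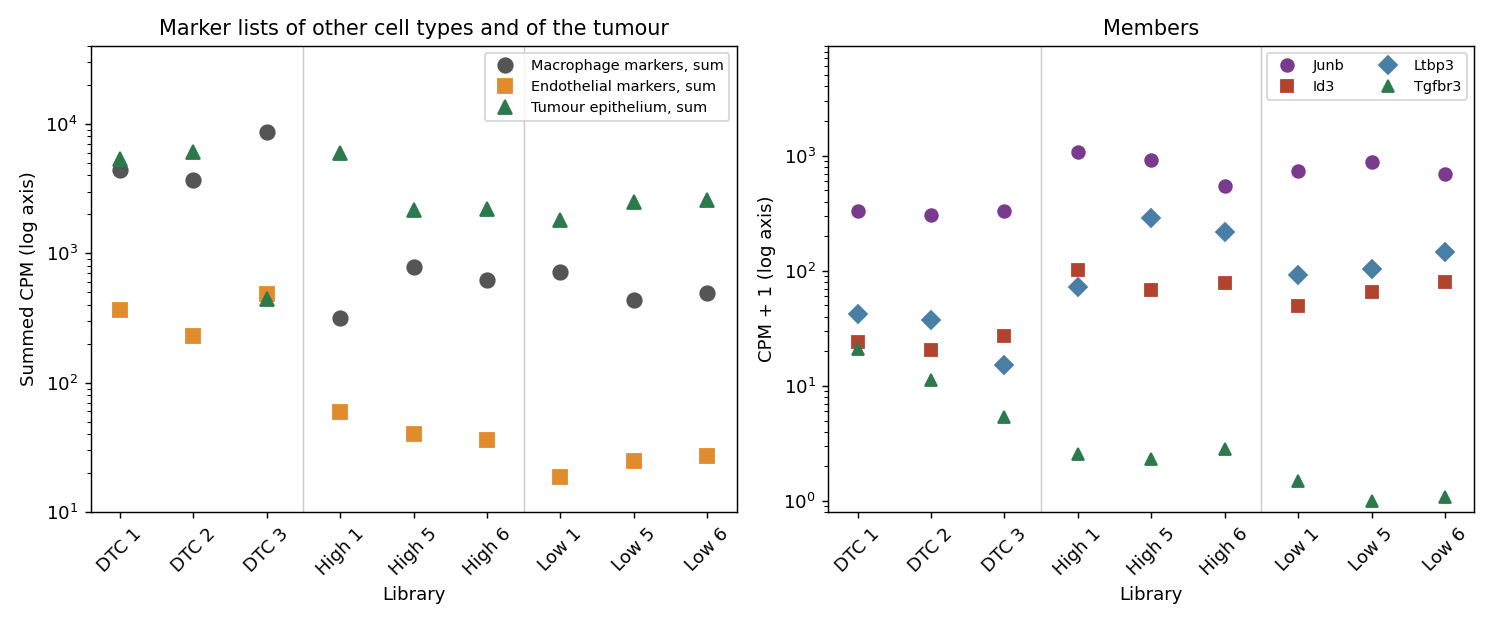
Summed CPM of marker lists (left, log axis) and CPM + 1 of members (right, log axis) in each library, with DTC first. The macrophage and endothelial sums of every DTC library lie above those of all mCherry libraries, and DTC 3 has the lowest tumour epithelium sum, at 439 CPM.

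Between mCherryHigh and mCherryLow no member passed the test, so the values here describe the libraries. Differences leaned upward, with 27 members above 0 and 11 below and a median of 0.44, against 0.09 for all genes. Groups lay wholly apart for 6 members, with Tgfbr3, Tgfb2, Id1, Bmpr2 and Smad6 higher in mCherryHigh and Smad2 lower, where 15.9% of all genes lay apart and 5.78% were wholly lower. For Tgfbr3 the order rests on 1 read in mCherryHigh 1, where 3 reads are 4.66 CPM, and on 1, 0 and 1 in mCherryLow. Of the 38, 5 had an unadjusted limma p under 0.05, and of all genes 939 higher (6.08%) and 509 lower (3.30%) did, with a smallest adjusted p of 0.444. edgeR on the recovered reads called 0 genes and DESeq2 148.

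Tgfb2, a TGF-beta form known from embryonic tissue, was at 26.6, 27.8 and 47.6 CPM in DTC, 34.2, 41.9 and 49.4 CPM in mCherryHigh and 7.31, 11.6 and 30.7 CPM in mCherryLow. mCherryLow 6 came within the DTC range. The difference of mCherryHigh from mCherryLow was 1.505 (SE 0.55, limma adjusted p = 0.488). Bmp2, which signals through Smad1 and Smad5, was at 69.3, 62.8 and 46.5 CPM in DTC, 141, 132 and 60.5 CPM in mCherryHigh and 20.5, 30.0 and 89.4 CPM in mCherryLow. Here mCherryLow 6 lay above mCherryHigh 6, and the difference was 1.43 (SE 0.58, adjusted p = 0.523).

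The type I BMP receptor Bmpr1a was at 60.1, 60.9 and 46.5 CPM in DTC, 87.0, 79.5 and 35.2 CPM in mCherryHigh and 32.2, 37.8 and 32.6 CPM in mCherryLow. Library mCherryHigh 6 fell within the mCherryLow range, and the difference of 0.85 was not called (SE 0.41, limma adjusted p = 0.558). Bmpr2 differed by 1.37 (SE 0.63, adjusted p = 0.555) and Id1 by 0.77 (SE 0.31, adjusted p = 0.518). Ltbp3 differed by 0.57, Id3 by 0.35 and Junb by 0.09, none of them called, and the sign of Junb turned under other scalings of the libraries.

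Other genes of the pathway, 91 listed of which 81 were in the table, were counted in the same fits. In DTC against mCherryLow 18 of 71 tested were called higher (25.4%) and 6 lower (8.45%), where 34.2% and 8.87% of all genes were, with a median difference of 0.11 against 0.59 for all genes. Against mCherryHigh 9 of 75 were called higher (12%) and 4 lower (5.33%), where 23.0% and 7.19% of all genes were, with a median of 0.14 against 0.55. The members and these genes were not tested against each other. In mCherryHigh against mCherryLow 0 of 68 were called. Among ligands and their processing outside the members, 9 of 13 were called higher (69.2%) and 1 lower in DTC against mCherryLow, where 34.2% of all genes were called higher, and 4 of 15 were called higher (26.7%) against mCherryHigh, where 23.0% of all genes were. The share of 69.2% includes genes that passed the filter on low values largely through the DTC libraries, such as Bmp3 and Bmp5. It is therefore given as a description.

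The largest rises among these were Acvr1c, the type I receptor ALK7, the integrin chain Itgb6, which frees latent TGF-beta in epithelium, and the ligands Bmp3 and Bmp5. Acvr1c was at 60.9, 31.2 and 128 CPM in DTC, 6.21, 1.84 and 3.17 CPM in mCherryHigh and 0.975, 5.07 and 1.43 CPM in mCherryLow, a difference of 4.37 from mCherryLow (SE 0.66, limma adjusted p = 0.000668). Itgb6 was at 91.3, 64.3 and 118 CPM in DTC, 15.5, 4.29 and 5.42 CPM in mCherryHigh and 3.41, 12.2 and 1.77 CPM in mCherryLow, a difference of 4.04 from mCherryLow (SE 0.61, adjusted p = 0.000639). DTC lay above all mCherry libraries for both genes. Bmp3 averaged 27.9 ± 5.38 CPM in DTC, 2.19 ± 0.849 CPM in mCherryHigh and 1.10 ± 1.51 CPM in mCherryLow (SD, n = 3 each), and Bmp5 averaged 21.7 ± 3.32 CPM in DTC, 1.93 ± 2.41 CPM in mCherryHigh and 1.07 ± 1.85 CPM in mCherryLow. These 4 genes were called against mCherryLow in every fit that left out 1 library. In mCherryLow 1, 5 and 6, Bmp3 was at 0.488, 2.82 and 0 CPM and Bmp5 at 0, 0 and 3.20 CPM. Both thus passed the filter on low values largely through the DTC libraries, and their calls are given as a description. Lung epithelial markers summed to 126, 479 and 127 CPM in DTC, 24.9 to 54.6 CPM in mCherryHigh and 12.3 to 26.9 CPM in mCherryLow, and their part in these levels was not tested.

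The 6 falls against mCherryLow were in Furin, a protease that cuts the TGF-beta propeptide, Fn1, the matrix protein fibronectin, and the 4 genes with the largest differences: Bmper, a secreted BMP binder, Atoh8, a transcription factor, Map3k7, the kinase TAK1 that TGF-beta and BMP receptors activate beside the Smads, and Usp15, a deubiquitinase that acts on the receptor complex. Bmper was at 2.28, 3.41 and 4.33 CPM in DTC, 57.5, 53.7 and 35.6 CPM in mCherryHigh and 7.80, 23.3 and 33.3 CPM in mCherryLow. The groups did not overlap, and the difference from mCherryLow of -2.19 (SE 0.64, limma adjusted p = 0.0166) was lost without DTC 1 (0.0821), mCherryLow 5 (0.0542) or mCherryLow 6 (0.0768). Map3k7 was at 37.3, 75.0 and 24.9 CPM in DTC, 18.6, 44.0 and 63.4 CPM in mCherryHigh and 121, 117 and 138 CPM in mCherryLow. Like Smad2, it was wholly higher in mCherryLow than in the other groups. DTC differed from mCherryLow by -1.58 (SE 0.43, adjusted p = 0.0124), lost without DTC 1 (0.0572), and mCherryHigh by -1.71 (SE 0.44, adjusted p = 0.444), which was not called.

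Usp15 was at 71.5, 84.8 and 46.5 CPM in DTC, 213, 115 and 137 CPM in mCherryHigh and 127, 223 and 174 CPM in mCherryLow, and differed by -1.36 from mCherryLow (SE 0.38, limma adjusted p = 0.0134), lost without mCherryLow 5 (0.0509) and with quantile normalization (0.0550). Atoh8 averaged 2.78 ± 1.69 CPM in DTC, 11.6 ± 3.35 CPM in mCherryHigh and 11.2 ± 3.57 CPM in mCherryLow (SD, n = 3 each). Its difference from mCherryLow of -1.76 (adjusted p = 0.0354) was lost without DTC 1 (0.0946), DTC 2 (0.133), mCherryLow 1 (0.0788) or mCherryLow 6 (0.112), and under 3 other settings (0.0517 to 0.0694). Both genes had every DTC library below every mCherry library. In mCherryHigh against mCherryLow the ligand Gdf11 was at 28.0, 21.5 and 31.3 CPM against 7.31, 9.39 and 12.5 CPM, a difference of 1.39 (SE 0.43, limma adjusted p = 0.484). Eng, or endoglin, an accessory receptor of endothelium, was at 17.1, 11.6 and 14.9 CPM in mCherryHigh libraries, set against 5.85, 3.10 and 5.23 CPM in mCherryLow, a difference of 1.46 (SE 0.49, adjusted p = 0.486). Neither was called, both had groups apart, and the endothelial markers summed to 36.2 to 59.0 CPM in mCherryHigh against 18.5 to 27.0 CPM in mCherryLow.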

How the data were processed

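RNA from 9 libraries was measured by sequencing. Per the labels' protocols, extraction used RNAqueous-Micro, cDNA was made with SMART-seq v4 and libraries with Nextera XT, which does not mark strand. Per the submitters' processing notes, the genome build was mm9. Which aligner, counter and annotation were used is not given in the sources used here. CPM for 24012 genes were deposited, made by the authors. In each column 100% of values were whole multiples of 1 read within 0.01 read, which gave back each read count and each library total.

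Each comparison was tested with limma 3.58.1 (R 4.3.3) as a two-sided trend fit (limma-trend) of log2(CPM + 1) on group, for genes at 1 CPM or more in 3 or more of 6 libraries. P-values were adjusted by Benjamini-Hochberg over all genes tested, at 0.05. Fold changes on this scale understate the change of low genes. Values in every library are given for Ltbp3, Id3 and Junb, for members called in a DTC comparison whose higher group averaged 10 CPM or more, and for the 6 members with the smallest p in mCherryHigh against mCherryLow with a mean of at least 5 CPM. Of the other pathway genes, those with the largest called differences were named. The members, lists and tests were chosen with earlier results of these data known.

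The settings varied were pseudocounts, filters, quantile and median-of-ratios scaling, 1 fit of all 9 libraries, the label number as a block, the label codes as a term, and leaving out each library. Count tests on the recovered reads (edgeR 4.0.16, DESeq2 1.42.0), reads thinned to the shallowest library, and CPM without Gm10800, Gm10801 and Lars2 were chosen after seeing the data. The test was checked on simulated data. Exon lengths and overlaps came from a GENCODE annotation of GRCm38, and promoter windows from RefSeq on GRCm38.p6, both later builds than mm9, and they were joined to the table by name.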

Additional observations from a re-analysis of the deposited data

Results flagged for a closer look

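Id1 was singled out because its DTC and mCherryHigh libraries lay on opposite sides of mCherryLow: every DTC library was below every mCherryLow library, and every mCherryHigh library was above. Tested directly, DTC minus mCherryHigh was -2.10 in log2(CPM + 1), with an SE of 0.39 and a limma adjusted p of 0.00400. The rise of mCherryHigh over mCherryLow did not itself pass the test (adjusted p = 0.518).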

How the results depend on the processing

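None of the 32 called differences named in the text turned its sign under any alternative run. Of them, 13 were called in every fit that left out 1 library and still tested the gene. These include Tgfbr3 in DTC minus mCherryLow, whose call is no support. It was tested in only 3 such fits because it passed the filter only through the DTC libraries. Of the 44 named differences the 1 that reversed was that of Junb in mCherryHigh minus mCherryLow, not called at 0.09: it was -0.073 with median-of-ratios scaling, -0.033 with edgeR, -0.025 with DESeq2, and between -0.11 (without mCherryHigh 1) and 0.37 with 1 library left out. Quantile normalization ended 11 of the named calls. In mCherryHigh minus mCherryLow DESeq2 called 148 genes against 0. In DTC minus mCherryLow all genes called were 8064, and 4300 with quantile normalization, and 3628 to 7008 with 1 library left out. Members called higher there were 2, and 1 with a 5 CPM filter, 0 with quantile normalization and 0 to 3 with 1 library left out. Members called lower were 10, and 16 with median-of-ratios scaling, 17 with edgeR, 17 with DESeq2 and 3 to 10 with 1 library left out, with 3 without DTC 1. In DTC minus mCherryHigh all genes called were 5949, and 3150 with quantile normalization and 2538 to 6997 with 1 library left out. The 1 member called higher, Tgfbr3, was lost (0) with a pseudocount of 0.5, no filter, a 5 CPM filter, quantile or median-of-ratios scaling, edgeR or thinning to the shallowest library (a single random draw), and 0 to 1 were called with 1 library left out. Members called lower were 11, and 6 to 12 with 1 library left out, while all genes called lower were 1417, and 587 to 1569 with 1 library left out. Of all calls in DTC minus mCherryLow 79.4% were higher, against 52.7% with quantile, 64.9% with median-of-ratios, 59.5% with edgeR and 63.6% with DESeq2. In DTC minus mCherryHigh the share was 76.2%, against 51.3%, 67.8%, 58.4% and 66.5% in the same order. The cause of these changes was not tested. With the label number as a replicate block in mCherryHigh minus mCherryLow, 0 genes and 0 members were called. Deviations of same-numbered libraries had an r across genes of -0.204, -0.0234 and 0.270 for the numbers 1, 5 and 6. Libraries of unlike number had r from -0.439 to 0.326. With 3 libraries per group these values cannot decide whether the number marks a pair. No paired analysis was possible for DTC because it shares only 1 number with the other groups. Depth limits the members with 0 or 1 read in mCherryHigh 1, where 3 reads are 4.66 CPM: Ltbp2, Acvr1b, Tgfbr3, Tgfb3 and Bmp1.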
